A study of Mus musculus with 18 samples.

Results

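Main population cells of the mouse thyroid are the cells left after the side population, a minority that pumps out a DNA-binding dye, has been gated away. Their RNA was set against a common RNA pool of mouse tissues on 6 of the 18 arrays of the series, chosen as all arrays labelled main population. Male and female C57BL/6 mice gave the thyroids, which were digested with collagenase and dispase. The cells were cultured for 2 days, and staining with a Hoechst dye, with and without verapamil, which blocks efflux pumps, set the sorting gate. The 6 arrays comprise 3 of thyroidectomized main population cells (TMP 1 to 3), from glands after partial thyroidectomy, and 3 of control main population cells (CMP 1 to 3), from glands without it. The other 12 arrays hold side population cells after partial thyroidectomy (TSP, 6 arrays) and without it (CSP, 6 arrays). Each array also received the same reference, a commercial RNA mixture from Swiss Webster mice that pools the lymphoid organs spleen and thymus, the gonads of both sexes (testicle and ovary), liver, lung, heart, kidney and brain with embryo of 10 to 12 days. The cells had been in culture and the reference came from whole tissue of another strain, so culture, strain and cell type cannot be told apart in the ratio. Nothing states how many animals stood behind a sample, and the p values measure the spread between these samples.

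The thyroid gland is built of follicles whose epithelial cells take up iodide, attach it to thyroglobulin with hydrogen peroxide made by dual oxidases, and release thyroid hormone. A set of transcription factors, Nkx2-1, Pax8, Foxe1 and Hhex, keeps these cells differentiated, and the receptor for thyroid-stimulating hormone drives them. Between the follicles lie C cells, which make calcitonin, together with fibroblasts, vessels and blood cells, and the parathyroid glands sit against the thyroid.

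Values are log2 ratios of Cy5 sample over Cy3 reference, so 1 stands for a 2-fold excess in the main population, and means are given ± SD over the 6 arrays (n = 6). A gene was called enriched or depleted where the mean of the 6 ratios exceeded 2-fold in either direction at an adjusted p under 0.05. Sample was always in Cy5 and reference always in Cy3, so a bias of the dyes remains in the ratio, and the test leaves out the spread of the reference itself. TMP 3 and CMP 3, which shared slide 5, had fewer spots well above background in Cy5 (51.2% and 45.8%) than the other 4 arrays (59.4% to 72.0%). Arrays of the same number shared a slide and were the closest to each other, with a median correlation of 0.97 across genes, which are not independent replicates, against 0.895 over all pairs of main population arrays. The brightest probe represents each gene. Of 565 genes in the lists and among the leading genes, 225 had several probes, and for 108 of these the probes spanned over 1 on the log2 scale.

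Of 22142 genes tested, 1133 (5.12%) were enriched in the main population and 3535 (16%) were depleted, 21.1% in either direction. The median ratio of all genes was -0.13. Enrichment was over 2-fold on every one of the 6 arrays for 1010 of the enriched genes, and depletion for 3279 of the depleted genes. At least 4-fold differences made up 562 of the enriched and 2249 of the depleted genes, and at least 16-fold differences made up 34 and 315. Of the called genes 24.3% were enriched here and 39.7% in the ratios the authors deposited (2340 enriched and 3552 depleted of 19405 genes), which cover fewer genes and were processed in steps not given in the sources used here. Both sources called 1130 genes enriched and 3022 depleted, and 0 in opposite directions.

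The largest enrichment belonged to Pth, which encodes parathyroid hormone. Its probe lies at chr7:109301756-109301815 of mouse build mm7, on the minus strand. The log2 ratio of Pth was 6.14, 6.68 and 5.69 on the TMP arrays and 5.86, 6.51 and 5.79 on the CMP arrays. The slide 4 arrays were the highest in each group, and the mean of 6.11 ± 0.41 (SD, n = 6) was a 69-fold excess over the reference (adjusted p = 2.59e-07). Scin, which encodes the actin-severing protein scinderin, followed at 6.07 ± 0.55, and Anxa1, an annexin that binds phospholipids in the presence of calcium, at 5.48 ± 0.98. Anxa1 was the most uneven of the leading genes, with 6.26, 5.73 and 4.0 on the TMP arrays and 6.48, 5.83 and 4.59 on the CMP arrays, the slide 5 arrays being lowest in each group. Tg, the gene of thyroglobulin, ranked next.

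The other leading genes with signal in both channels on all arrays ranged in mean from 4.49 for Prom2 to 4.91 for Cybrd1. Cybrd1 encodes a duodenal ferric reductase, and its ratio was 4.96, 5.39 and 4.70 on the TMP arrays and 4.59, 5.29 and 4.54 on the CMP arrays. Krt18, a keratin of simple epithelia, averaged 4.90 ± 0.20. Upk3bl averaged 4.82, the bicarbonate transporter gene Slc4a5 4.64, Srd5a1, which encodes a steroid 5-alpha-reductase, 4.62, and Bmp5, a bone morphogenetic protein, 4.61. Further genes were Fosl1, Rab11fip1 (4.54), the lymphotoxin gene Lta (4.50) and Prom2. Each of these genes was over 2-fold enriched on all 6 arrays. In 9 enriched genes the reference signal was not well above background on any array, which leaves a lower bound. The 3 with a gene symbol and Cy5 well above background on all 6 arrays were Cxcl2, at least 10.2-fold higher in the main population, S100a7a, at least 4.88-fold, and Vtcn1, at least 4.07-fold. These bounds hold for the mean of the 6 arrays and not for each array. Log2 ratios ranged from 2.34 (CMP 3) to 4.53 (TMP 1) for Cxcl2 and from 1.28 (TMP 1) to 3.44 (CMP 3) for S100a7a.

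**Figure D1:**
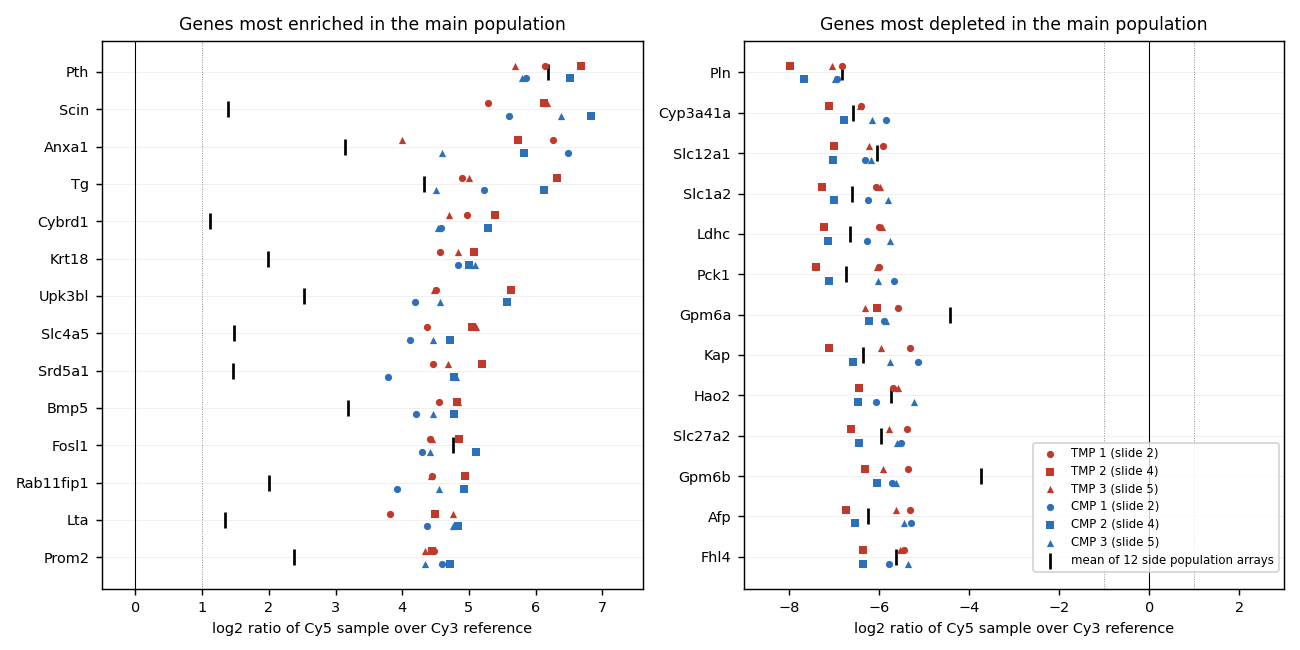
Log2 ratio of Cy5 sample over Cy3 reference on each of the 6 main population arrays (TMP red, CMP blue, marker shape by slide) for 14 of the most enriched (left) and 13 of the most depleted genes (right) with signal in both channels. Black ticks are means of the 12 side population arrays and dotted lines mark 2-fold. Pth and Fosl1 lie at the side population mean, and Scin, Cybrd1 and Krt18 lie well to the right of it.

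Most genes of thyroid follicular cells were enriched. Of 18 tested, 12 were enriched, where 5.12% of all genes were, and 1 was depleted, with a median ratio of 2.43 against -0.13 for all genes, and 16 were well above background in Cy5 on all 6 arrays. Tg had log2 ratios of 4.89, 6.31 and 4.99 on the TMP arrays and 5.23, 6.13 and 4.50 on the CMP arrays. Its mean of 5.34 ± 0.72 (SD, n = 6) was a 40.6-fold excess (adjusted p = 1.5e-06), and the slide 4 arrays, TMP 2 and CMP 2, were the highest in each group.

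The transcription factors of the lineage were enriched apart from Hhex. Nkx2-1 averaged 3.39 ± 0.26, Pax8 3.33 ± 0.56 and Foxe1 2.98 ± 0.61. Pax8 was 3.98, 3.04 and 2.76 on the TMP arrays and 4.07, 3.26 and 2.87 on the CMP arrays, so the slide 2 arrays were the highest and the slide 5 arrays the lowest. Foxe1 was well above background in the reference on only 3 of the 6 arrays and Pax8 on 4. Hhex averaged 0.73 ± 0.33 and did not pass the test against 2-fold (adjusted p = 1).

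Genes of iodide oxidation and handling differed among themselves. The maturation factors of the dual oxidases, Duoxa1 (3.24 ± 0.37) and Duoxa2 (3.23 ± 0.22), and Iyd, the deiodinase that recovers iodide from iodotyrosines (3.03 ± 0.34), were enriched 8-fold or more. Duox1 was 1.23, 1.27 and 1.41 on the TMP arrays and 1.37, 1.63 and 1.38 on the CMP arrays, and its mean of 1.38 passed the test (adjusted p = 0.0197) but not with slide pairs as a block (adjusted p = 0.145), nor without TMP 1, TMP 2, TMP 3 or CMP 2 (adjusted p = 0.0508 to 0.0933). Its reference signal was well above background on 4 arrays. Duox2, well above background on 5 arrays in each channel, averaged 1.07 ± 0.24 and was not called (adjusted p = 0.986). Dio1, which converts thyroxine to the active hormone, averaged 1.89 ± 0.29 (adjusted p = 0.000554). Tshr, the receptor gene for thyroid-stimulating hormone, was 3.02, 2.82 and 2.94 on the TMP arrays and 3.65, 2.67 and 3.0 on the CMP arrays. CMP 1 stood above the other 5 values of Tshr, which spanned 2.67 to 3.02, the reference was well above background on 4 arrays, and the mean was 3.02 (adjusted p = 4.76e-06).

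The iodide transporter gene Slc5a5 averaged 0.45 ± 0.22, with signal well above background on 3 of the 6 arrays in each channel, and was not called. Cdh16, a cadherin of kidney and thyroid epithelium, averaged 0.08 ± 0.36 and Slc5a8, a monocarboxylate transporter of follicular cells, -0.09 ± 0.36. Kidney is part of the reference and is a known site of both, and its part in these ratios was not tested. Slc26a4, which encodes the anion exchanger pendrin, was the depleted member, with -3.21, -3.43 and -2.0 on the TMP arrays and -3.25, -3.63 and -2.41 on the CMP arrays and a mean of -2.99 (adjusted p = 7.1e-05). With slide pairs as a block, 10 of the 18 remained enriched. Different probes of a gene gave different sizes for Tshr, 0.77 and 3.02, and for Duoxa1, 0.26 and 3.24.

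**Figure D2:**
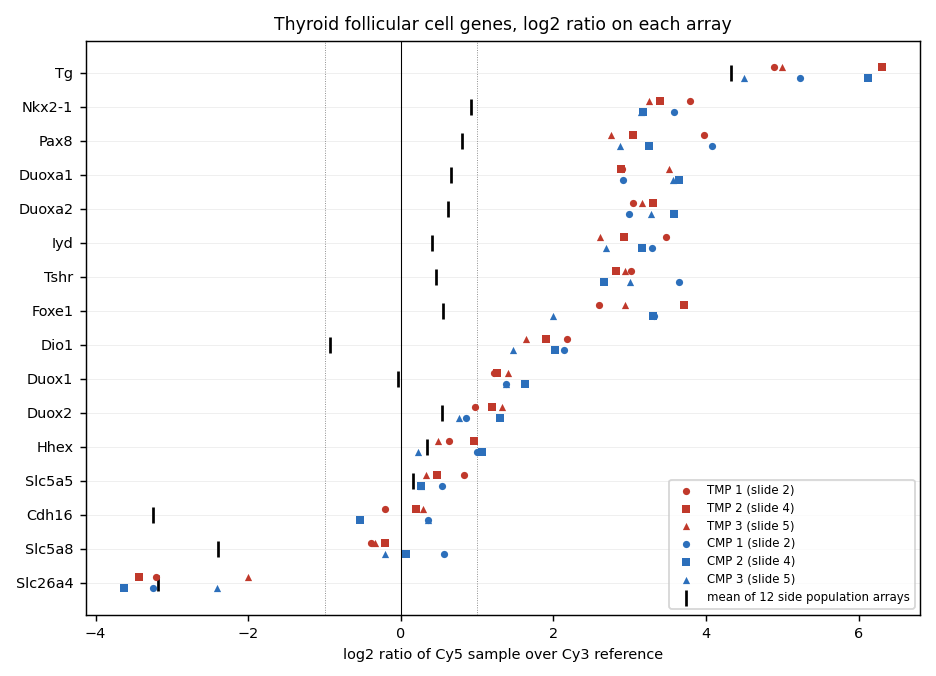
Log2 ratio to the reference of 16 thyroid follicular cell genes on each of 3 TMP (red) and 3 CMP (blue) arrays, in order of the mean, with marker shape by slide. Black ticks give the mean of 12 side population arrays and dotted lines mark 2-fold. Tg is highest and Slc26a4 lies at about the side population mean near -3.

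The promoters of this list were searched on either strand for 2 motifs, in the 250 bases before the start of each RefSeq entry (GRCm38.p6). The recognition core of Nkx2-1 was read as TCAAGTG. The site of AP-1, the dimer of Fos and Jun family proteins, was read loosely as TGANTCA. Any base was allowed at N, so a match need not be the AP-1 site. An entry existed for 12 of the 18 genes, and none for Tg and Tshr. TCAAGTG stood in 2 of the 12, Iyd and Slc5a8, and TGANTCA in 1, Duoxa2. Over all 32851 promoter entries the shares were 2.68% and 6.75%. Iyd (chr10:3540024-3540273, plus strand) and Duoxa2 (chr2:122298650-122298899, plus strand) are shown since both genes are enriched and their windows hold a motif, in capitals, which starts 208 bases before the start in Iyd and 168 bases before it in Duoxa2. Duoxa2 and Duox2 lie next to each other on opposite strands of chromosome 2.
Iyd: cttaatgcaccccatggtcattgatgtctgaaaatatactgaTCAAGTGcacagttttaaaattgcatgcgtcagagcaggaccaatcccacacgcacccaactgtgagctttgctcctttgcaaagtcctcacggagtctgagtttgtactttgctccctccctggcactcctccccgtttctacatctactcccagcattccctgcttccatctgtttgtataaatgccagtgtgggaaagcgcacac
Duoxa2: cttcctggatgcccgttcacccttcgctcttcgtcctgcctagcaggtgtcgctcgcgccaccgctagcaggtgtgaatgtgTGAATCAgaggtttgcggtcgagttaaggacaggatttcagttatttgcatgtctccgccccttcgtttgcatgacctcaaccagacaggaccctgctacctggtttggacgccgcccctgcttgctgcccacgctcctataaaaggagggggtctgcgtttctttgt

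Epithelial genes were enriched almost as a whole. Of 21 genes tested, 18 were enriched and 0 were depleted, against 5.12% and 16% of all genes. The median was 2.87, and all 21 were well above background in Cy5 on all arrays. Krt18 had ratios of 4.56, 5.08 and 4.83 on the TMP arrays and 4.84, 5.01 and 5.10 on the CMP arrays, a 29.9-fold mean excess. Its partner keratins of simple epithelia, Krt7 and Krt8, averaged 4.05 ± 0.29 and 3.74 ± 0.67. Epcam, an adhesion molecule of epithelia, averaged 3.27 ± 0.48. Cdh1, the gene of E-cadherin, was 4.65, 4.30 and 2.83 on the TMP arrays and 4.69, 4.24 and 2.75 on the CMP arrays, so that the slide 5 array was the lowest in each group. Grhl2, a transcription factor of epithelial identity singled out after its values were seen, varied least of the list, with 3.39, 3.20 and 3.38 on the TMP arrays and 3.39, 3.27 and 3.32 on the CMP arrays, although the lowest of its 3 probes gave 0.60.

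The lowest enriched member was Esrp2, a splicing regulator, at 1.47 ± 0.45 (adjusted p = 0.0306, and 0.141 with the block), and its call was lost without TMP 2, TMP 3, CMP 1 or CMP 3 (adjusted p = 0.0549 to 0.0954). The 3 members not called, named since they are few, were Ocln (1.1 ± 0.53), Ehf (0.83 ± 0.56) and Prss8 (0.39 ± 0.16). Lung, kidney and other organs of the reference contain epithelium too, and their part in these ratios was not tested. In bulk RNA of this kind, fewer cells of a type and less RNA per cell cannot be told apart.

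Laminins and integrins tie epithelial cells to the basement membrane. Of 14 genes of this list tested, 8 were enriched, where 5.12% of all genes were, 0 were depleted and 6 were not called, with a median of 2.11. Means below 0, named after their values were seen, were those of Col17a1 (-0.82) and Lamc1 (-0.29). The laminin chain genes Lamb3 and Lama3 were among the enriched members. Lamb3 was 2.62, 3.31 and 3.43 on the TMP arrays and 3.51, 3.87 and 3.17 on the CMP arrays, with a mean of 3.32, and Lama3 averaged 2.18 ± 0.12, with 0.15 from its second probe. Lama5, a laminin chain gene of many basement membranes, averaged 3.22 ± 0.27. Of the integrins, chosen after their values were seen, Itgb6 averaged 3.40 ± 0.33 and Itgb4, the partner of hemidesmosomes, 2.68 ± 0.29. Itgav was 2.86, 2.81 and 0.61 on the TMP arrays and 2.86, 2.63 and 0.50 on the CMP arrays, with the slide 5 arrays far below the rest, and its mean missed the threshold (adjusted p = 0.0526, and 0.0232 with the block) but not without TMP 3 or CMP 3 (adjusted p = 0.00542 to 0.00758).

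C cell and parathyroid genes did not move as a group. Of 9 tested, 3 were enriched and 1 was depleted, against 5.12% and 16% of all genes. Beside Pth, Calca, which encodes calcitonin, had ratios of 3.83, 4.37 and 3.95 on the TMP arrays and 3.43, 4.47 and 3.92 on the CMP arrays and a mean of 4.0 (adjusted p = 1.01e-06). The second probe of Calca gave -0.06, and which part of the transcript either probe covers was not determined. Chga, the granule protein chromogranin A, averaged 3.43 ± 0.44, whereas Chgb, chromogranin B, was depleted at -4.07 ± 0.42. Gcm2, the parathyroid transcription factor, averaged 1.02 ± 0.36 and Casr, the calcium-sensing receptor, 0.22 ± 0.33. Both, chosen after their values were seen, were well above background on 4 of 6 arrays in each channel, and neither was called.

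Genes known for tissues of the reference filled the depleted end. Pln, which encodes phospholamban, a regulator of the calcium pump of heart muscle, was the most depleted gene with signal on all arrays (probe at chr10:53162196-53162255, mm7, plus strand). Its log2 ratio was -6.83, -7.98 and -7.05 on the TMP arrays and -6.93, -7.66 and -6.97 on the CMP arrays, and the mean of -7.24 ± 0.47 meant 151-fold less than in the reference (adjusted p = 2.44e-07). The slide 4 arrays were lowest in each group.

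Cyp3a41a, a liver cytochrome P450, averaged -6.45. Slc12a1, a salt transporter of the kidney loop (-6.44), Slc1a2, a glutamate transporter of brain glia (-6.39), Ldhc, a lactate dehydrogenase of sperm cells (-6.38), and Pck1, a gluconeogenic enzyme (-6.37), followed at close to equal ratios. Other leading depleted genes were the membrane glycoprotein genes Gpm6a (-5.98) and Gpm6b (-5.83), the kidney gene Kap (-5.97), Hao2 (-5.91), the fatty acid transporter Slc27a2 (-5.89), Afp, the fetal liver protein alpha-fetoprotein (-5.82), and Fhl4 (-5.80). Each of these was over 2-fold depleted on all 6 arrays. Other probes of these genes were less depleted, the least at -0.42 for Gpm6b, -0.93 for Slc1a2, -1.49 for Fhl4, -2.31 for Slc27a2 and -2.41 for Gpm6a.

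Marker lists of the organs in the reference gave the same picture by count. Liver genes were depleted in 18 of 18 (median -4.31), heart and striated muscle genes in 15 of 17 (-3.99), brain genes in 16 of 20 (-3.36), testis genes in 16 of 19 (-2.83) and kidney genes in 11 of 16 (-2.84). Genes of ovary were depleted in 8 of 15 (-1.57) and of lung in 6 of 12 (-1.42). For thymus and spleen, lymphocyte and thymocyte genes were depleted in 11 of 17 (-2.90) and erythroid genes in 6 of 9 (-2.78). Across all genes 16% were depleted, and the median was -0.13. In each of these 9 lists the median was below -1 on every array.

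Named members show the range within organs. In liver, the albumin gene Alb was -1.71, -3.54 and -3.19 on the TMP arrays and -1.85, -3.73 and -2.98 on the CMP arrays, so the slide 2 arrays were well above the others, and it was the least depleted member with a mean of -2.83. Afp was the most depleted. Apoa1, Apoa2 and Apob, the apolipoproteins of liver, averaged -3.23, -4.35 and -4.96. For Apob the highest of 4 probes gave -0.25. In heart, Myh6 and Myh7, the myosin heavy chains, averaged -3.51 and -4.43, and Myl2 and Myl3, myosin light chains, -4.07 and -3.99. In brain, the myelin genes Mbp and Mag averaged -3.93 and -1.77, although the highest of the 3 probes of Mbp gave 0.05.

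In testis, the protamine genes Prm1 and Prm2, which package sperm DNA, averaged -5.10 and -3.96. In kidney, Umod, uromodulin, averaged -4.04, and Aqp2, the water channel of collecting ducts, -0.99, not called. Surfactant genes of the lung differed, with Sftpc at -3.88 ± 0.79 and Sftpb not called at -0.85 ± 0.52. Aqp5, a water channel of lung and glands, was the enriched lung gene at 2.03 ± 0.40 (adjusted p = 0.000657).

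Some genes gave only bounds for their depletion, since Cy5 was not well above background on any array while Cy3 was on all 6. The 10 largest bounds ranged from at least 8.98-fold for Gpr158 to at least 20.9-fold for Gabra6, a receptor subunit of cerebellar neurons. Like those of enrichment, they are bounds on the mean of the 6 arrays. Sucnr1 was at least 15.2-fold lower, A1cf, a cofactor of RNA editing in liver, at least 15.1-fold, and Prok2 at least 13.4-fold. The second probe of Gpr158 gave 0.52. C1qtnf3, Ccdc38, Ankrd34b, Spock3 and Slc7a12 were at least 11.8, 11.1, 10.3, 9.73 and 9.22-fold lower. The bound for C1qtnf3 is that of its brightest probe, and its other probe gave -0.49. In all, 282 of the depleted genes had no main population array with a Cy5 signal well above background.

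**Figure D3:**
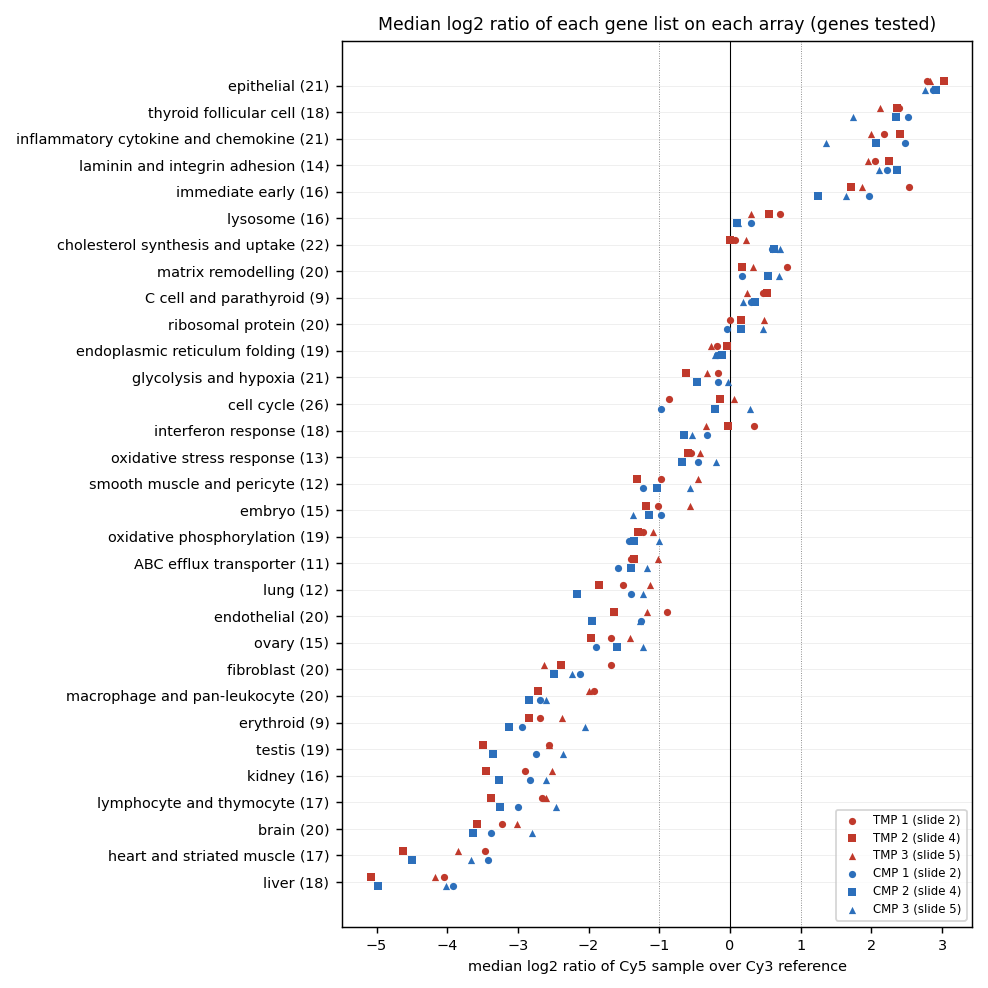
Median log2 ratio to the reference of 31 gene lists on each of the 6 main population arrays (TMP red, CMP blue, marker shape by slide), with the number of genes tested in brackets. Epithelial, follicular, cytokine, laminin and immediate early lists lie above 1 on every array and organ lists of the reference lie below -1.

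Embryo genes split. Of 15 tested, 2 were enriched and 6 were depleted, against 5.12% and 16% of all genes. Hmga2, a chromatin protein of embryonic and transformed cells, was 3.49, 3.56 and 3.47 on the TMP arrays and 3.31, 3.42 and 3.56 on the CMP arrays, with hardly any spread around the mean of 3.47 (adjusted p = 5.21e-07), although the lowest of its 3 probes gave 0.28. Igf2bp1, the other enriched member, an RNA-binding protein of embryonic tissue, averaged 1.53 ± 0.49 (adjusted p = 0.0308, and 0.127 with the block), and was not called without TMP 2, TMP 3, CMP 1 or CMP 3 (adjusted p = 0.073 to 0.0936). Igf2, the fetal growth factor, averaged -3.48 ± 0.42, and the imprinted genes H19 and Dlk1 averaged -2.76 and -3.12.

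Genes known for stroma, vessels and blood were mostly below the reference. Fibroblast genes were depleted in 14 of 20 and enriched in 0, against 16% and 5.12% of all genes, with a median of -2.21. The proteoglycan gene Lum was -4.0, -4.61 and -5.35 on the TMP arrays and -4.63, -4.69 and -4.95 on the CMP arrays, a 26.1-fold deficit, and the fibrillar collagens Col1a1, Col1a2 and Col3a1 averaged -3.88, -3.80 and -3.68, and the growth factor receptor Pdgfra -3.39 ± 0.37. The second probes of these genes lay closer to the reference, at -0.09 for Col1a1, -0.38 for Col1a2, -0.10 for Col3a1 and -0.05 for Pdgfra. Vim, the intermediate filament of mesenchymal cells, singled out after its values were seen, was -1.57, -2.32 and -3.19 on the TMP arrays and -2.28, -2.57 and -3.06 on the CMP arrays, lowest on slide 5 and highest on slide 2 in each group. Twist1, a mesenchymal transcription factor, was the least depleted member called (-1.49, adjusted p = 0.017, and 0.0818 with the block), with Cy5 well above background on 4 arrays, and was not called without TMP 2, TMP 3 or CMP 2 (adjusted p = 0.055 to 0.0664). With the block 12 of the 20 fibroblast genes and 8 of the 20 endothelial genes were depleted.

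Endothelial genes were depleted in 10 of 20 and enriched in 0 (median -1.42), against 16% and 5.12% of all genes. Cldn5, a claudin of vessels, was lowest at -3.93 ± 0.51, and Cdh5, VE-cadherin, averaged -2.72 ± 0.29 and Kdr, a receptor for vascular endothelial growth factor, -2.45 ± 0.61. Pecam1 (-0.72 ± 0.30) and Flt1 (-0.58 ± 0.23) were not called, and Tek, the angiopoietin receptor, averaged -1.47 (adjusted p = 0.0335, and 0.102 with the block) and was not called without TMP 2, TMP 3, CMP 2 or CMP 3 (adjusted p = 0.0557 to 0.137). Pecam1 and Tek were well above background in Cy5 on 4 arrays. Smooth muscle and pericyte genes were depleted in 4 of 12, where 16% of all genes were. Of these 4, Rgs5 was the most (-2.88 ± 0.30) and Abcc9 the least depleted (-1.96 ± 0.38). Cy5 was well above background on 4 arrays for Rgs5 and 5 for Abcc9. The contractile genes Acta2 (0.23 ± 0.23) and Tagln (0.01 ± 0.42) were near the reference, and Myh11 was depleted (-2.41 ± 0.60).

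Macrophage and pan-leukocyte genes were depleted in 16 of 20 (median -2.60), where 16% of all genes were. Of the 20, however, 16 were well above background in Cy5 on all arrays. Ptprc, the pan-leukocyte antigen CD45, was -3.92, -4.53 and -4.54 on the TMP arrays and -4.85, -4.64 and -4.78 on the CMP arrays. Adgre1, the macrophage marker F4/80, averaged -2.59 ± 0.61 and Csf1r, the receptor for a macrophage growth factor, -3.20 ± 0.56. Other probes lay closer to the reference, at -0.19 for Adgre1 and, for the highest of 3, -0.05 for Csf1r. Each TMP value of Adgre1 was above each CMP value, a difference that was not called in TMP minus CMP, where 0% of all genes were called. Cd68 averaged -0.04 ± 0.50 and was not called, and C1qb, a complement component of macrophages, was the least depleted member called (-1.68 ± 0.53), though not without TMP 2, CMP 1 or CMP 2 (adjusted p = 0.0583 to 0.0619). Of lymphocyte genes Cd3e averaged 0.60 ± 0.19, not called, while Cd3d and Cd3g averaged -3.09 and -3.12. The second probe of Cd3e gave -1.56. Cy5 was well above background on 5 arrays for Cd3e and Cd3g. Cd8b1 was lowest at -4.61 ± 0.57, but its second probe gave 0.74.

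Immediate early genes, transcription factors and regulators that rise early after stimulation, were enriched in 8 of 16 and depleted in 0 (median 1.60). Of all genes 5.12% were enriched and 16% depleted. Fosl1, an AP-1 subunit, was 4.42, 4.85 and 4.44 on the TMP arrays and 4.30, 5.10 and 4.41 on the CMP arrays, a 24.1-fold mean excess, and Myc was the lowest member called (1.67 ± 0.12). Fos was 5.73, 5.07 and 2.87 on the TMP arrays and 4.76, 4.03 and 2.81 on the CMP arrays, so it was highest on slide 2 and lowest on slide 5 in both groups, and its SD of 1.20 was the widest among the members called. Fosb averaged 3.0 ± 0.20, and Jun, with 1.03 ± 0.79, was not called. Atf3 and Dusp1 were singled out after their values were seen. Atf3, a stress-induced transcription factor, averaged 3.74 ± 0.27. Dusp1, a phosphatase of MAP kinases that was not called, was 1.62, -0.16 and -1.22 on the TMP arrays and 0.84, -0.93 and -1.30 on the CMP arrays, above the reference on slide 2 and below it on the other slides in each group. Enzymatic digestion, culture and sorting preceded the RNA, and their part in these values was not tested.

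Cytokine and chemokine genes were also enriched in most members. Of 21 tested, 14 were enriched and 3 were depleted (median 2.29), against 5.12% and 16% of all genes. Csf2, a growth factor for granulocytes and macrophages, was 2.16, 4.55 and 4.71 on the TMP arrays and 2.83, 4.62 and 4.77 on the CMP arrays, with the slide 2 arrays below the others in each group, and its reference signal was well above background on 4 arrays. Il6 was 3.80, 3.46 and 4.09 on the TMP arrays and 3.83, 3.66 and 3.71 on the CMP arrays, with overlapping groups and a mean of 3.76 (adjusted p = 5.4e-07), and its reference was well above background on 5 arrays. The members from here to Csf3, other than Il1a, Il1b and Il11, were chosen after their values were seen. The neutrophil chemoattractants Cxcl1 and Cxcl5 averaged 3.63 ± 0.33 and 2.60 ± 1.07, beside Cxcl2, given above as a bound. Tnf averaged 2.74 ± 0.36, Il1a 2.34 ± 0.72, Il1b 2.29 ± 0.53 and Il1rn, the antagonist of their receptor, 2.22 ± 0.39. Second probes gave 0.77 for Il1a and 0.78 for Il1rn. The reference was well above background on 4 arrays for Tnf and Il1a.

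Ptgs2, the inducible cyclooxygenase, averaged 2.66 ± 0.80 and Il11 2.58 ± 0.34. Ccl2, a monocyte attractant, averaged 1.49 ± 0.38 and Csf3 1.52 ± 0.39, and with the block their adjusted p was 0.0712 and 0.0705, against 0.0151 and 0.0108 without it. Ccl2 was not called without TMP 1 or CMP 1 (adjusted p = 0.0517 to 0.0644), nor Csf3 without TMP 2 (adjusted p = 0.0527). Csf3 was well above background on 5 arrays in Cy5 and on 4 in Cy3. The depleted members were Il33 (-2.65 ± 0.28), Ccl5 (-2.84 ± 0.38) and Saa3, an acute phase protein (-3.08 ± 0.58). Leukocyte markers, which could mark another source of cytokines, were depleted on the same arrays as listed above, and their part in the cytokine values was not tested.

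TGANTCA stood in the window of 71 of 701 enriched genes with a promoter entry (10.1%), of 191 of 2519 depleted genes (7.58%) and of 932 of 14020 tested genes (6.65%). AACCGGTT, the site of Grainyhead-like factors such as Grhl2, stood in 0 of the 701 and in 0.207% of the tested genes. The windows of 4 enriched genes are shown, since these genes carry the cytokine and leading-gene results and their windows hold the motif, with TGANTCA in capitals, read on either strand. The motif starts 249 bases before the start of Il6 (chr5:30012864-30013113, plus strand), 141 before the most upstream of 3 starts listed for Il1rn (chr2:24336610-24336859, plus strand), 12 before that of Il1a (chr2:129309973-129310222, minus strand) and 235 before that of Cybrd1 (chr2:71117804-71118053, plus strand). The windows of the other 2 starts of Il1rn hold no match. A match describes the letters and not the binding of a factor.
Il6: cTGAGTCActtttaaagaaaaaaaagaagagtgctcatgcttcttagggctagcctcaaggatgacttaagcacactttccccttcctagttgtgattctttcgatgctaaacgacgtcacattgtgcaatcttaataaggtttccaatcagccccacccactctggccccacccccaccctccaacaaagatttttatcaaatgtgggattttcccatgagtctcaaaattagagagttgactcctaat
Il1rn: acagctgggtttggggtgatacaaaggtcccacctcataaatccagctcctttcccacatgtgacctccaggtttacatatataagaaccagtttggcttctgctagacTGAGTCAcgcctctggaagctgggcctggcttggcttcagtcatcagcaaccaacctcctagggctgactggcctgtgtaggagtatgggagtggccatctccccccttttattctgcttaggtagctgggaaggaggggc
Il1a: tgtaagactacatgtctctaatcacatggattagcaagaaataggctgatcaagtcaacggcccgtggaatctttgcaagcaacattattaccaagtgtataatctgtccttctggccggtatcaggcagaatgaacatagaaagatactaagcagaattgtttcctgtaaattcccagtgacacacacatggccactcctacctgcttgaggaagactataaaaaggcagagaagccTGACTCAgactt
Cybrd1: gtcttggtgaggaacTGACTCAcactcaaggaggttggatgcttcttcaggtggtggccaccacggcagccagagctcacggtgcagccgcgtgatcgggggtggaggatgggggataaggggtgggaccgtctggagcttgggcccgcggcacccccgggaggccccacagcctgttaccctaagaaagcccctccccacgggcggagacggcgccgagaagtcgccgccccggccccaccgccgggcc

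**Figure D4:**
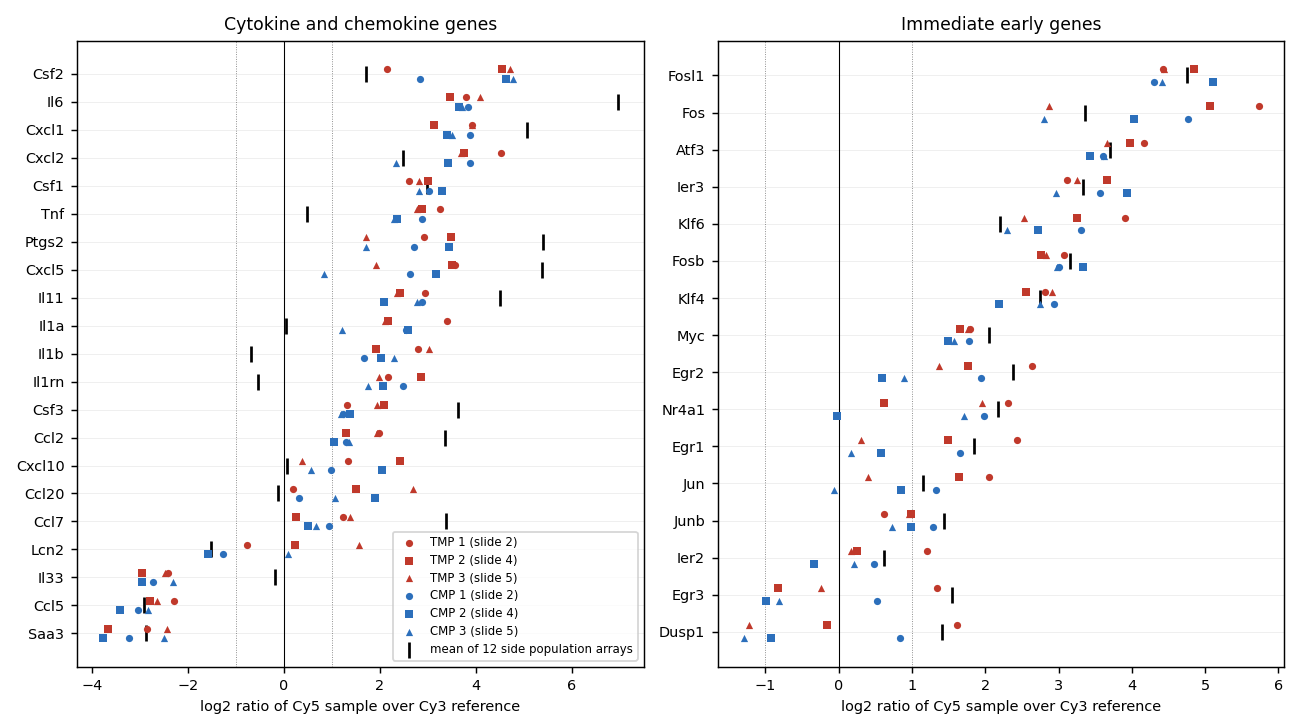
Log2 ratio to the reference of 21 cytokine and chemokine genes (left) and 16 immediate early genes (right) on each of 3 TMP (red) and 3 CMP (blue) arrays, marker shape by slide, with the mean of 12 side population arrays as black ticks. Il6, Cxcl1, Cxcl5 and Ptgs2 lie left of the side population mean and Tnf, Il1a, Il1b and Il1rn right of it, while Fosl1, Atf3 and Fosb lie at it.

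Of 20 matrix genes 8 were enriched, where 5.12% of all genes were, and 3 were depleted, a share near the 16% of all genes. Plau, the plasminogen activator urokinase, and its receptor Plaur, both chosen after their values were seen, averaged 2.08 ± 0.36 and 2.61 ± 0.27. Mmp2, a gelatinase of stromal cells, was the lowest at -2.67 ± 0.50, and Mmp9 (-1.20 ± 0.44) and Mmp3 (0.42 ± 0.57, Cy5 well above background on 5 arrays) were not called.

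Interferon response genes were mostly near the reference, with 1 of 18 enriched (Ifi44, 1.78 ± 0.39) and 4 depleted, against 5.12% and 16% of all genes. The second probe of Ifi44 gave -0.35, and with the mean of all probes, or on the CMP arrays alone, 0 of the 18 were enriched. The interferon-induced genes Isg15 (-0.45 ± 0.28) and Ifit1 (-0.45 ± 0.84) were not called. The count of depleted members was 1 without TMP 3 or CMP 2, 2 without TMP 2 or CMP 3, and 2 with the block.

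Among genes of general metabolism, oxidative phosphorylation genes were depleted in 6 of 19, where 16% of all genes were, and enriched in 0, and all 19 means were below 0 (median -1.19). Sdhb, a subunit of succinate dehydrogenase, was -1.87, -2.57 and -2.70 on the TMP arrays and -2.28, -2.51 and -2.51 on the CMP arrays, and Ndufs1, a subunit of complex I, averaged -1.97 ± 0.28, while Ndufb8 of the same complex was not called at -1.36 ± 0.53, though it was depleted without TMP 3 (adjusted p = 0.029). The second probe of Ndufb8 gave 0.68. With the block 4 were depleted, and with the median of each array as the only normalization 2. For Sdha and Cox5a the probes of the gene lay on opposite sides of 2-fold. Of 20 ribosomal protein genes 0 were called (median 0.17), where 21.1% of all genes were, and with that same normalization 7 were enriched.

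Glycolysis and hypoxia genes had 1 of 21 enriched, Adm, the vasodilator adrenomedullin (1.94 ± 0.40), and 2 depleted, Ndrg1 (-2.22 ± 0.47) and Pdk1 (-1.87 ± 0.15). For Pdk1 a second probe gave -0.37. Of all genes 5.12% were enriched and 16% depleted. The counts of this list and of the folding list below lie near or under these shares. Genes of folding in the endoplasmic reticulum had 1 of 19 enriched, Dnajc3 (1.52 ± 0.19), and 1 depleted, Sdf2l1 (-1.41, adjusted p = 0.0377, and 0.12 with the block), which was not called without TMP 1, TMP 2, CMP 1 or CMP 2 (adjusted p = 0.103 to 0.149). The chaperone gene Hspa5 was 0.60, 0.42 and -0.65 on the TMP arrays and 0.97, 0.30 and -0.90 on the CMP arrays, positive on slides 2 and 4 and negative on slide 5 in both groups.

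Lysosomal genes had 3 of 16 enriched, where 5.12% of all genes were. These 3 were the cathepsins Ctsh (2.08 ± 0.20), Ctsl and Ctsb. Follicular cells use cathepsins to release hormone from thyroglobulin. Ctsl averaged 1.54 and Ctsb 1.47, and with the block their adjusted p was 0.0695 and 0.0617, against 0.028 and 0.0107 without it. Ctsl was not called without TMP 2, TMP 3, CMP 2 or CMP 3 (adjusted p = 0.0505 to 0.111), nor Ctsb without TMP 1 (adjusted p = 0.0501). Lgmn, legumain, was depleted at -1.69 ± 0.24. Oxidative stress genes had Srxn1 enriched (1.72 ± 0.19) and 5 of 13 depleted, against 5.12% and 16% of all genes. Gpx3, a secreted glutathione peroxidase of kidney, was lowest at -3.65 ± 0.70.

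Of all genes 21.1% were called, and of 26 cell cycle genes 1 was, Rrm2, depleted at -1.60 ± 0.26. Their array medians were -0.87, -0.14 and 0.06 on TMP 1 to 3 and -0.97, -0.21 and 0.28 on CMP 1 to 3, so they were lowest on slide 2 and highest on slide 5 in both groups. Cdc20 and Pcna were singled out after their values were seen. Cdc20, an activator of mitotic exit, was -2.40, -1.20 and -0.50 on the TMP arrays and -2.81, -1.46 and -0.54 on the CMP arrays and was likewise lowest on slide 2, while Pcna, the DNA replication clamp, was 1.05, -0.07 and -1.0 on the TMP arrays and 0.68, 0.51 and -0.76 on the CMP arrays and was highest there. Mki67, a proliferation marker, averaged -1.60 ± 0.68 and was not called, but was depleted without TMP 3 (adjusted p = 0.0101).

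Of 22 cholesterol genes 1 was enriched and 1 depleted, against 5.12% and 16% of all genes. These were Msmo1 (1.54 ± 0.64, adjusted p = 0.0254, and 0.117 with the block) and Dhcr7 (-2.09 ± 0.69). Msmo1 was not called without TMP 2, TMP 3 or CMP 2 (adjusted p = 0.0699 to 0.0904). The medians of the cholesterol list were 0.08, 0.0 and 0.22 on TMP 1 to 3, below the 0.60, 0.62 and 0.71 on CMP 1 to 3. Hmgcs1, an early enzyme of the pathway, was -1.33, -0.69 and -0.94 on the TMP arrays and -0.02, 0.58 and -0.67 on the CMP arrays, while the highest of its 3 probes averaged 1.40. No gene of the list was called in TMP minus CMP.

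Efflux transporters of the ABC family, the pumps that define the side population, were depleted in 5 of 11 and enriched in 0. Across all genes 16% were depleted and 5.12% enriched. Abcg2, the pump most linked to side population cells, was -3.45, -3.79 and -3.51 on the TMP arrays and -3.37, -3.50 and -3.09 on the CMP arrays, a 10.9-fold deficit (adjusted p = 6.93e-07). Abcb1b and Abcb4 averaged -2.32 ± 0.25 and -2.73 ± 0.51, and Abcb1a -0.92 ± 0.30, not called, with Cy5 well above background on 4 arrays. For Abcb1b the highest of 3 probes gave -0.34, and for Abcb4 the second probe gave -0.98.

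The ratio to the reference did not separate the groups of main population arrays by the test used. In TMP minus CMP 0 of 22142 genes were called by limma (smallest adjusted p = 0.889), and 87 had an unadjusted p under 0.05. With the slide pair as a block 5 were called, and they are named here because they are few. Dcpp1 was -1.33, -1.02 and -0.90 on the TMP arrays and -2.96, -3.12 and -2.44 on the CMP arrays, a difference of 1.76 (adjusted p = 0.00109). Every TMP value of Dcpp1 was above every CMP value. Dcpp2 differed by 1.64 and a gene named only LOC671351 by 1.68, both with an adjusted p of 0.00109, and Spink8, a protease inhibitor of the Kazal type, by 1.42 (adjusted p = 0.0280). Fabp5, a fatty acid-binding protein, was lower in TMP by a difference of -1.21 (adjusted p = 0.0174), with -0.46, -0.08 and -0.24 on the TMP arrays and 0.86, 1.21 and 0.78 on the CMP arrays. Dcpp1 and Dcpp2 are near-identical paralogues, and a probe may bind RNA of both.

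A bias of the dyes shared by all arrays cancels when the main population is set against the side population. In that difference 2248 genes (10.2%) were higher and 2261 (10.2%) were lower in the main population. The side population arrays TSP 1 and TSP 2 resembled the main population arrays (median correlation across genes 0.946, against 0.687 for the other 10), and without them 2935 (13.3%) were higher and 3311 (15%) lower. These 2 arrays were left out because of that resemblance, which rests on the compared values. Larger counts or differences without them are therefore no separate support. Arrays are named by their scanner files. Of the 12 side population columns the authors deposited, 9 correlated best with the scanner file of another array. Among these, the column of TSP 4 went with the file of TSP 2 (0.888 across probes) and CSP 3 with CSP 5 (0.944). Likewise TSP 3 went with TSP 5 (0.769) and TSP 6 with CSP 6 (0.703). Which samples stand behind such side population files, TSP 2 and those on slides 4 and 5 included, is therefore in doubt. The 6 main population columns correlated best with their own files. Of the 1133 genes enriched over the reference, 571 were higher than in the side population and 36 lower, or 658 and 49 without those 2 arrays. Of the 3535 depleted genes, 727 were lower and 88 higher, or 1018 and 104 without them. Main population arrays lay on slides 2, 4 and 5 and side population arrays on slides 1, 3, 4 and 5, and differences within slides 4 and 5 are given beside the lists. Within slide 4 they set TMP 2 and CMP 2 against CSP 5 and CSP 6, and within slide 5 TMP 3 and CMP 3 against TSP 5 and TSP 6. They rest on 2 against 2 arrays, have no test, and the surgery differs between the populations within each slide.

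Follicular genes were higher than in the side population in 13 of 18, where 10.2% of all genes were (16 without TSP 1 and TSP 2), with a median ratio of 2.43 in the main and 0.43 in the side population. The median difference was 2.45, and 2.09 and 2.32 within slides 4 and 5. Cdh16, Slc5a8 and Dio1, near or moderately above the reference, differed by 3.32, 2.30 and 2.82 (adjusted p = 0.00426, 0.0025 and 0.00201). Tg differed by 1.02 (adjusted p = 0.149, and 0.013 without those arrays), with 5.34 in the main and 4.32 in the side population. Slc26a4 averaged -2.99 and -3.18 (adjusted p = 0.721).

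Of all genes 10.2% were higher and 10.2% lower in the main population, or 13.3% and 15% without TSP 1 and TSP 2. Epithelial genes were higher than in the side population in all 21 (median 2.87 in the main and 0.57 in the side population, with differences of 2.18 and 2.49 within slides 4 and 5). Laminin and integrin genes were higher in 7 of 14 and lower in 1 (10 and 1 without TSP 1 and TSP 2), with median differences of 0.82 and 0.89 within slides 4 and 5. Fibroblast genes were lower in 19 of 20, with medians of -2.21 and -0.10, and endothelial genes in 19 of 20, with medians of -1.42 and 1.31 in the main and side populations. Without TSP 1 and TSP 2 the counts were 20 and 19, and all 21 epithelial genes were again higher. Within slides 4 and 5 the median differences were -3.27 and -3.28 for fibroblast and -3.88 and -3.05 for endothelial genes. Kdr averaged -2.45 in the main and -0.57 in the side population (difference -1.89, adjusted p = 0.00757).

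**Figure D5:**
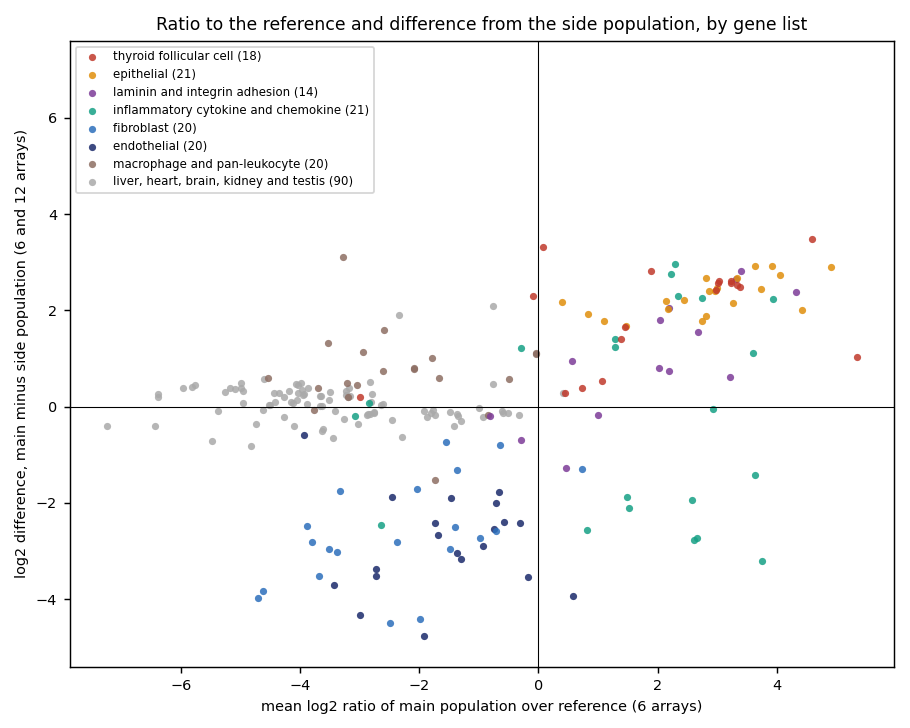
Mean log2 ratio of the main population over the reference (x axis, 6 arrays) against the log2 difference of main minus side population (y axis, 6 and 12 arrays) for genes of 12 lists, each point a gene and numbers in brackets genes tested. Epithelial and follicular genes lie mostly at upper right, fibroblast and endothelial genes mostly at lower left, organ genes of the reference mostly left and near 0 on the y axis, and cytokine genes spread along the y axis.

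Few genes of most reference organs were called between the populations, where 10.2% of all genes were higher and 10.2% lower. Lung had 2 of 12 higher and 1 lower. Brain (20 genes), testis (19) and ovary (15) had 1 lower each, and kidney had 1 of 16 higher. Lymphocyte (17 genes) and erythroid (9) lists had 0 called. Of the 18 liver genes 0 were called in either direction, with medians of -4.31 in the main and -4.57 in the side population. The median difference of liver genes was 0.29 over all arrays and had the opposite sign within slides 4 and 5 (-0.25 and -0.28), as did that of heart genes (0.33, against -0.15 and -0.19). Of 17 heart genes 1 was higher, Myl7 (-0.76 in the main and -2.84 in the side population, adjusted p = 0.0203), and not called without TMP 3 or CMP 3 (adjusted p = 0.0603 to 0.0631). Pth was not called, with 6.11 in the main and 6.18 in the side population (difference -0.07, adjusted p = 0.889), nor was Fosl1, with 4.59 and 4.76 (adjusted p = 0.739). Calca, with 4.0 and 4.44, was not called (adjusted p = 0.398) but was lower without TSP 3 (adjusted p = 0.0292). A p above the threshold does not show that the levels were equal.

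Cytokines divided. Il6 was enriched over the reference at 3.76 but lower than in the side population at 6.97 (difference -3.21, adjusted p = 0.00192), and so were Cxcl5 (-2.78), Ptgs2 (-2.73) and Cxcl1 (-1.43). Il1b (2.97, adjusted p = 0.00111), Il1rn (2.76), Il1a (2.30) and Tnf (2.26) were higher in the main population. In all, 7 of 21 were higher and 9 lower, also without TSP 1 and TSP 2. Of all genes 10.2% were higher and 10.2% lower, or 13.3% and 15% without those 2 arrays. Each of the 8 cytokine genes named here kept its direction within slides 4 and 5. Macrophage genes, though below the reference, were higher than in the side population in 10 of 20 and lower in 1 (11 and 1 without TSP 1 and TSP 2), with Adgre1 at -2.59 in the main and -4.18 in the side population (adjusted p = 0.00542). The count of macrophage genes called higher was 5 without TMP 1 and 6 without TMP 3, CMP 1, CMP 2 or CMP 3. Within slides 4 and 5 the median difference of the macrophage list was 0.59 and 0.36. Ptprc, their defining pan-leukocyte gene, differed by 0.60 (adjusted p = 0.132, and 0.0485 without TSP 6), and the part of macrophages in the cytokine differences was not tested.

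Cholesterol genes were higher in the main than in the side population in 18 of 22 (19 without TSP 1 and TSP 2), with medians of 0.44 and -0.88 and median differences of 1.07 and 1.39 within slides 4 and 5. Matrix genes were lower in 12 of 20 and higher in 2, where 10.2% of all genes were in each direction. Among the lower were Mmp3 (-4.77, adjusted p = 0.00192) and Mmp2 (-2.72, adjusted p = 0.00289). The gate itself selects on efflux, and Abcg2 was lower in the main population by a difference of -2.66 (adjusted p = 0.00325). Of the 11 efflux transporters 5 were lower and 1 was higher. Of the leading depleted genes, Gpm6a and Gpm6b were lower than in the side population as well (-1.55 and -2.09, adjusted p = 0.0105 and 0.0125).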

How the data were processed

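Amplified RNA was labelled with Cy5 (samples) and Cy3 (reference) and hybridised to Agilent 2-colour arrays of 45018 spots with probes of 60 bases. Mean spot and background intensities were taken as deposited in the scanner files. Feature Extraction is version 8.5.1.1 per the submitters' processing notes and 9.5.1.1 per the file headers. The log10 ratios in the files, per the file headers, and the log2 ratios the authors deposited, whose normalization is not given in the sources used here, served as comparison and alternative. The deposited log10 ratio equalled that of the processed signals within 0.001 for 84.68% of spots.

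Signals were corrected with normexp (offset 50, which shrinks ratios of dim spots) and loess-normalized within each array in limma 3.58.1 (R 4.3.3), control spots having weight 0. Probes were kept if well above background on at least 3 of 6 arrays in Cy5 or in Cy3, and the brightest of them stands for the gene. Symbols came from RefSeq by accession (23075 probes), symbol (6582) or synonym (3077), and 8440 kept the name in the file. Probe positions are those of build mm7 in the files, and which part of a transcript a probe covers was not determined.

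The ratio to the reference was tested against 2-fold with limma's treat, averaging TMP and CMP, and TMP minus CMP and main minus side population with eBayes, with Benjamini-Hochberg adjustment over all 22142 genes. A lower bound sets the measured channel against the dimmest signal well above background. The number of arrays limits the precision. Equally numbered TMP and CMP arrays shared a slide, per the file headers, and deviated together (correlation 0.65, 0.727 and 0.784), so the pairs also served as a block. The fits were tested on simulated data with independent noise on each array. That leaves out the shared deviation of the pairs, so it cannot show how fits without the block behave under it.

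Genes named are the 15 most enriched and depleted with signal in both channels, the largest bounds, all follicular genes, and from each list its first 4 and its extreme called members, with exceptions stated, and some of these genes are not reported here. Members and lists were chosen with earlier results of these data known. Alternatives covered background correction, normalization, filter, probe choice, the test, the block and each array in turn.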

Additional observations from a re-analysis of the deposited data

Results flagged for a closer look

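Of 91 sets of 6 main population values tested for a sample far from the others, 1 stood out. Tshr, the receptor gene for thyroid-stimulating hormone, had a log2 ratio of 3.653 on CMP 1, against 3.019 on the next array and 2.667 on the lowest, so that the gap to the nearest value was 0.643 of the whole range. Chance flags about 1 in 20 sets of this kind.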

How the results depend on the processing

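For the ratio to the reference, the processed signals of the scanner software called 2043 genes enriched, the authors' deposited values 2340 of 19405, and a test against a ratio of 1 called 6148 enriched and 8990 depleted, against 1133 and 3535. Requiring both channels well above background on all arrays left 2007 depleted of 13119. Median centring in place of loess gave 898 and 4714, so 16% of calls were enriched in place of 24.3%, and it shifted the median of all genes from -0.13 to -0.26. The deposited values shifted that median to 0.11. With the replicate block 934 were enriched and 3137 depleted, of which 924 and 3136 were also called without it. Leaving out each array gave 994 to 1147 enriched and 3197 to 3736 depleted, and leaving out slide 5, chosen after seeing the data, 1326 and 4018.

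For TMP minus CMP, 5 genes were called with the replicate block and 0 without it or without any array. For main minus side population, 1305 were higher with both channels well above background (of 10320). Leaving out each array gave 1730 to 2538 higher and 1541 to 2704 lower. Reversed differences were Ctsb, -0.15 with the mean of all probes, Mrc1, 1.22, and Sycp3, 0.99, both with the processed signals, and the cause was not tested. Of 16167 values of this difference for 565 genes under the alternatives, 15442 kept direction and call, 483 lost the call, 239 gained it and these 3 reversed. For the ratio to the reference, 9517 of 10035 values kept direction and call, 216 lost it, 302 gained it and 0 reversed, and under the 2 alternatives chosen after seeing the data, without slide 5 and processed signals with the block, 1055 of 1130 kept them, 36 lost the call and 39 gained it. Medians of 3 of 31 lists changed sign, endoplasmic reticulum folding (0.33 with median centring and 0.12 with the mean of all probes), glycolysis (0.31 with median centring) and ribosomal proteins (-0.05 without slide 5). Beside the named calls, the block left lysosomal genes with 1 enriched in place of 3 and oxidative stress genes with 3 depleted in place of 5. The dimmer signal over background on slide 5 limits what its arrays can show, and strain, culture and the fixed dye order limit every ratio to the reference.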
